A study of Mus musculus with 10 samples.

Results

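The cytosolic ribosomal protein genes were taken from the table of gene levels by name. A gene was a member if it carried an Rpl or Rps name with a number and at most an ending in a, x, l or al, or if it was Rplp0, Rplp1, Rplp2 or Rpsa, and if its mean level over the 10 libraries was at least 1 TPM. The unit, TPM, is a transcript share: reads are set against the length of the gene and then scaled so that every library has the same sum. Rpl3 and its muscle form Rpl3l were not counted. Of 55858 rows, 82 names matched and 78 were members, 46 of the large and 32 of the small ribosomal subunit. The 4 names under the level were Rpl39l at 0.847 TPM, Rpl32l at 0.158 TPM, Rpl6l at 0.0258 TPM and Rpl10l, listed at 0. The lowest members were Rpl12 at 22.4 TPM, Rps27 at 22.8 TPM, Rpl5 at 29.2 TPM and Rps4l at 36.4 TPM.

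RNA came from whole hearts of mice at postnatal day 10, with 5 animals in each group. All animals were MCM; Chmp4bF/F, that is, they carried a tamoxifen-inducible Cre labelled MCM and floxed alleles of Chmp4b, a subunit of the ESCRT-III membrane-remodelling complex; the labels do not spell out the promoter of MCM. The cKO animals received tamoxifen at 0.1 mg/g under the skin for 2 days from postnatal day 0, and the controls received corn oil. No group received tamoxifen without floxed alleles, so the drug, active Cre and the deletion cannot be told apart. The series asks how ESCRT acts in making T-tubules, inward folds of the heart muscle cell membrane.

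The cytosolic ribosome is built from a small subunit, which reads the mRNA, and a large subunit, which joins the amino acids, and nearly every ribosomal protein is needed in a single copy per ribosome. Many vertebrate ribosomal protein mRNAs begin with a stretch of pyrimidines (C or T in the gene), the 5′ terminal oligopyrimidine or TOP motif, through which mTORC1 and LARP1 govern their translation. In the heart, ribosome content is known to follow growth and the workload of the muscle.

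The members share features that the name rule did not use. In GENCODE M21, 77 were protein-coding and Rps4l was a transcribed processed pseudogene. They lay on 19 chromosomes, 4 of them (Rpl10, Rpl36a, Rpl39 and Rps4x) on X. Within 28 members lay 54 small nucleolar RNA genes. RefSeq (GRCm38.p6) start sites were matched for 58 members, with 69 starts in all, among 27025 genes with a start. A run of 8 or more pyrimidines on the gene's strand covered the first base in 17 of 58 members (29.3%) and in 4.59% of all genes. Such a run stood within 50 bases of a start in 50 of 58 members (86.2%) and in 39.3% of all genes. The sequence CCGGAAG, which holds the core letters read by ETS factors such as GABP, was found on either strand between 250 bases before and 50 bases after a start in 24 of 58 members (41.4%) and in 9.93% of all genes. TATAAA stood in the 50 bases before a start on the gene's strand in 0 of 58 members and in 3.15% of all genes. These are matches of letters, not measured sites. The following windows of 30 bases around the RefSeq start show the pyrimidine run of the family first and then the members that stood apart in level below. The first base is the sixteenth letter, and capitals mark the longest pyrimidine run in the window.

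Rpl7a: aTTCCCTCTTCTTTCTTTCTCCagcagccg
Rpl27a: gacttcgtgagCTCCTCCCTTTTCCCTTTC
Rpl15: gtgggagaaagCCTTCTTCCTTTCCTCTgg
Rps6: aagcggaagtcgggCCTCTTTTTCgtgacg
Rps27: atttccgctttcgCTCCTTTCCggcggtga
Rpl28: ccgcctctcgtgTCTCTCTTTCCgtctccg
Rps2: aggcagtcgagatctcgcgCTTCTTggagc
Rpl10: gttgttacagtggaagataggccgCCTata

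They lie at chr2:26910792-26910821 on the plus strand (Rpl7a), chr7:109519180-109519209 plus (Rpl27a), chr14:18270972-18271001 minus (Rpl15), chr4:86857353-86857382 minus (Rps6), chr3:90213634-90213663 minus (Rps27), chr7:4792950-4792979 plus (Rpl28), chr17:24720048-24720077 plus (Rps2) and chrX:74270801-74270830 plus (Rpl10). Rpl7a, Rpl15 and Rps6 were chosen after their windows were seen. In the first 6 windows the run covers the first base, with 21 pyrimidines for Rpl7a and 19 for Rpl27a. In the windows of Rps2 and Rpl10 the longest runs were 6 and 3 pyrimidines and did not reach it. The 17 members with a run of at least 8 over the first base had a median log2 difference between groups (scaled as described below) of 0.29, and the 41 without one had a median of 0.33.

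Some facts of the whole series touch the members. Chmp4b stood at 38.2 ± 1.42 TPM (SD, n = 5) in cKO and 47.4 ± 8.61 TPM (SD, n = 5) in control hearts as deposited, with control 4 inside the cKO range. Divided by the size factor described below it was 29.3 ± 1.37 against 60.5 ± 6.47, without overlap. Mitochondrially encoded transcripts took 35.5 to 41.5% of the TPM in cKO libraries and from 50.005 to 59.4% in controls. The median tested gene was 0.63 higher in cKO on the log2 scale as deposited, and 0.28 higher when TPM was closed again without mitochondrial transcripts. Since each library has the same sum, a change in all genes and a change in a few abundant transcripts cannot be told apart. Members were also given relative to the median gene, that is, as TPM divided by a size factor for each library. The defining cardiomyocyte markers were abundant in every library (Tnnt2 between 4458 and 6966 TPM, Myl2 between 11093 and 16517 TPM). Relative to the median gene 8 of 8 cardiomyocyte markers were lower in cKO, where as deposited 3 were lower and 5 not called. The 11 tested macrophage markers were higher on both scales. Of all tested genes, 20.8% were called higher and 20.8% lower relative to the median gene, and 76.5% higher and 3.46% lower as deposited. The macrophage markers had a summed level between 470.3 and 699 TPM in cKO libraries and between 79.6 and 109 TPM in controls. Xist, which marks female cells, was above 1 TPM in 3 cKO libraries (1, 5 and 7) and in 0 control libraries. In bulk tissue, fewer cells of a type and less RNA per cell cannot be told apart.

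Ribosomal protein transcripts made up a larger share of the RNA in cKO hearts. Of the TPM that was not mitochondrially encoded, the 78 members held 7.89, 8.02, 7.82, 7.81 and 8.76% in cKO libraries 1, 3, 5, 6 and 7. They held 5.27, 5.93, 5.35, 5.43 and 5.23% in control libraries 4, 6, 8, 9 and 13. The groups did not overlap, and cKO 7 and control 6 were the highest of their groups. The means were 8.06 ± 0.401% (SD, n = 5) and 5.44 ± 0.284% (SD, n = 5), a ratio of 1.48. Large subunit members held 4.52 ± 0.236% against 3.02 ± 0.139%, and small subunit members 3.54 ± 0.166% against 2.42 ± 0.156%. The summed large subunit level over the summed small subunit level was 1.28 ± 0.0101 in cKO and 1.25 ± 0.0440 in controls, with ranges of 1.27 to 1.29 and 1.21 to 1.30 that overlapped. The same 2 libraries, cKO 7 and control 6, had the lowest mitochondrial share of their groups.

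**Figure D1:**
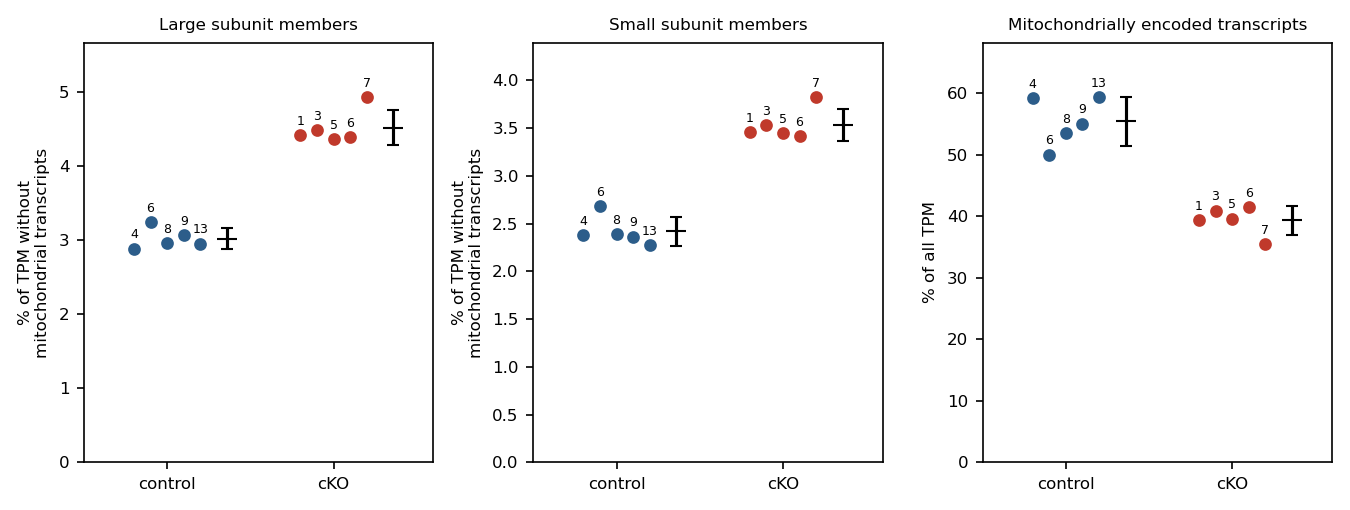
Share of TPM in each library, control on the left and cKO on the right of each panel: large subunit members and small subunit members as a percentage of TPM without mitochondrially encoded transcripts, and mitochondrially encoded transcripts as a percentage of all TPM. Points are libraries with their replicate numbers, and bars are mean ± SD (n = 5); the groups do not overlap in any panel, and cKO 7 lies above the other cKO libraries for both subunits.

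As deposited, every member was higher in cKO. The limma test called 46 of 46 large and 32 of 32 small subunit members higher at an adjusted p under 0.05, where 76.5% of all 13282 tested genes were called higher and 3.46% lower. All 78 had groups without overlap, as did 62.5% of tested genes in the same direction and 1.92% in the other. The median log2 difference was 1.03 for the large subunit (2.04-fold) and 1.05 for the small subunit (2.08-fold), against 0.63 for all tested genes. Levels ranged over members from 31.7 TPM (Rpl12) to 1785 TPM (Rpl23a) in the large subunit of cKO hearts, with a median of 535 TPM, and from 13.04 to 983 TPM with a median of 249.9 TPM in controls. In the small subunit they ranged from 41.9 TPM (Rps27) to 2390 TPM (Rps24), median 517 TPM, in cKO and from 3.62 to 1214 TPM, median 267 TPM, in controls.

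Relative to the median gene, 25 of 46 large and 16 of 32 small subunit members were called higher by limma, and 1 small subunit member, Rps2, was called lower. Of all tested genes, 20.8% were called higher and 20.8% lower on this scale. The other 36 members were not called. The median log2 difference was 0.29 for the large subunit (1.22-fold) and 0.31 for the small subunit (1.24-fold), beside 0.01 for all tested genes. Of the 78 members, 76 had a difference above 0, as did 6798 of 13282 tested genes; Rps2 and Rps4l were the exceptions. Members lay closer together than genes at large, with an interquartile range of 0.17 against 0.50. Groups did not overlap for 12 large and 7 small subunit members that were higher and for Rps2, which was lower (15.8% and 15.5% of tested genes). The call passed in all 24 alternative settings for 14 members, among them Rpl4, Rpl10, Rpl10a, Rpl11, Rpl12, Rpl19, Rpl23, Rpl32, Rpl34, Rps18, Rps19, Rps26 and Rps27l. The same count was not made over all tested genes. The small subunit count fell to 10 without cKO 6, 9 without cKO 7, 10 without control 4, and 8 without control 8, 9 or 13. In those settings 2373 of 12806 (without cKO 6) to 2604 of 13176 (without control 13) tested genes were called higher. Without the 3 cKO libraries with Xist the counts were 12 large and 6 small, where 1392 of 12172 tested genes were higher and 1803 lower. The counts rose to 46 and 30 when TPM was closed again over transcripts not encoded in mitochondria, a scale on which 6066 of 13282 tested genes were higher.

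In the following, levels are scaled TPM, that is, TPM divided by the size factor, in cKO libraries 1, 3, 5, 6 and 7 and control libraries 4, 6, 8, 9 and 13 in that order. The stalk proteins Rplp0, Rplp1 and Rplp2 form the flexible arm of the large subunit that recruits the GTPase translation factors. Rplp0 was at 531, 532, 503, 539 and 613 in cKO and 451, 477, 466, 465 and 437 in controls, so that every cKO library was above every control. Its log2 difference was 0.24 (SE 0.06, limma adjusted p = 0.0106). Rplp1 differed by 0.31 (limma adjusted p = 0.0150), with cKO 3 to 7 above all controls and cKO 1 at 872 below control 6 at 888. Rplp2 differed by 0.37 and was not called (limma adjusted p = 0.0715), with 208 in cKO 5 inside the control range of 171 to 241. The 3 stalk genes thus had differences of like size and unequal spread.

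Rpl10 (uL16), the joining protein that is loaded late in large subunit maturation, was among the members furthest above the median gene. It was at 458, 379, 358, 345 and 337 in cKO and 280.3, 179.7, 262, 273 and 202 in controls, without overlap. The log2 difference was 0.66 (SE 0.13, limma adjusted p = 0.0021). Rpl39, a very small protein that lines the exit tunnel, was at 156, 149.6, 121, 178 and 230.1 in cKO and 57.7, 118, 81.2, 142 and 122 in controls. Its difference of 0.71 was large and its spread was too (SE 0.24, limma adjusted p = 0.0313), with control 9 above cKO 5. Rpl13a, known for its role outside the ribosome in inflammatory translational control, differed by 0.51 (SE 0.17, limma adjusted p = 0.0305), and Rpl38, known for its part in translating Hox mRNAs, by 0.56 (SE 0.20, limma adjusted p = 0.0457); both had overlapping groups. Rpl13a shares 32.8% of its exonic bases with other annotated genes, so its reads could be divided.

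At the low end of the large subunit stood Rpl8 (uL2), a protein beside the peptidyl transferase centre, Rpl28 and Rpl24. Rpl8 was at 455, 469.9, 489, 501 and 543 in cKO and 498, 501, 461, 463 and 466 in controls, with the groups intermixed. Its log2 difference was 0.04 (SE 0.06, limma adjusted p = 0.6518). Rpl5, which with Rpl11 and 5S rRNA binds Mdm2, differed by 0.06 on its own row (limma adjusted p = 0.5796), while Rpl11 differed by 0.34 and was called. Rpl28, Rpl24, Rpl36 and Rpl23a differed by 0.07, 0.09, 0.09 and 0.12 and were not called. For Rpl5 and Rpl28, near-identical copies, described below, held 93.2% and 48.9% of the summed level. Summed with those copies they differed by 0.39 (limma adjusted p = 0.0010) and 0.30 (0.1367). The contrast of Rpl5 with Rpl11 thus rests on the row chosen. Rpl23a was the most abundant large subunit member at 1785 ± 164 TPM in cKO and 983 ± 81.3 TPM in controls as deposited. Rpl24 and Rpl23a share 47.0% and 59.7% of their exonic bases with other annotated genes, so their reads could be divided too.

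In the small subunit, Rps2 (uS5), which lies at the mRNA entry channel, was the member called lower. As deposited it was 1097 ± 48.6 TPM in cKO and 761 ± 89.0 TPM in controls, a log2 difference of 0.53, the lowest of the 78 and below the median of all tested genes. Scaled, it was at 767, 873, 821, 857 and 898 in cKO and 975, 1042, 962, 946 and 942 in controls. Every cKO library was below every control, and the log2 difference was -0.21 (SE 0.06, limma adjusted p = 0.0231). The direction turned to 0.09 when TPM was closed again without mitochondrial transcripts, where the median of all tested genes was 0.28 and that of the small subunit 0.61.

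Rps27l, a close paralogue of Rps27 known as a p53 target, had the smallest adjusted p of the small subunit. It was at 239, 227, 242, 263.5 and 304 in cKO and 158, 205, 141, 155 and 154 in controls, without overlap. The log2 difference was 0.65 (SE 0.11, limma adjusted p = 0.0005). Rps19, the gene most often affected in Diamond-Blackfan anaemia, was at 205, 237, 223, 226 and 299 in cKO and 149.9, 201, 153, 161 and 168 in controls. Every cKO library was again above every control (0.51, SE 0.11, limma adjusted p = 0.0028). Rps26, which contacts the mRNA at the exit channel, was at 520, 567, 535, 545 and 713 in cKO and 385, 470, 413, 417 and 446 in controls, also without overlap (0.43, SE 0.09, limma adjusted p = 0.0032). Rps20 differed by 0.61 with a wide spread (SE 0.22, limma adjusted p = 0.0402), and cKO 1, 3 and 5 (90.7 in cKO 5) lay below control 6 at 109. The most abundant small subunit members, Rps24, Rps15 and Rps14, differed by 0.24, 0.24 and 0.31, of which the last was called (limma adjusted p = 0.0519, 0.0642 and 0.0286). Rpsa, also known as a laminin receptor, differed by 0.18 and was not called (limma adjusted p = 0.0931).

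Some members have a paralogue in the set. Rpl36a on X and its intronless relative Rpl36al differed by 0.44 (limma adjusted p = 0.0129) and 0.25 (limma adjusted p = 0.0909), a contrast between genes that was not tested. Rps4x on X differed by 0.29 (limma adjusted p = 0.0350), and Rps4l by -0.06 (limma adjusted p = 0.6905) at a level of 44.8 ± 4.28 TPM in cKO and 28.04 ± 3.36 TPM in controls as deposited.

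To show how members moved among themselves, each was divided by the median member of the same library, a ratio that the closure of TPM does not affect. The centre is made from the members, so their own median lies near 0 by construction. The smaller share of calls among members than among all genes is therefore no result about them. On this scale 65 members were not called, 3 were called higher and 10 lower by limma, where 8.05% of tested genes were higher and 40.3% lower. All 3 higher members were of the small subunit, Rps27, Rps27l and Rps19. The 10 lower members were Rpl7a, Rpl8, Rpl9, Rpl23a, Rpl24, Rpl27a and Rpl28 of the large and Rps2, Rps4l and Rps7 of the small subunit; Rpl7a, Rpl9 and Rpl27a are named because they were called. Rps2 was 2.02, 2.27, 2.16, 2.11 and 1.79 times the median member in cKO and 3.13, 2.79, 3.10, 2.97 and 2.89 times in controls. The groups were far apart, and the log2 difference was -0.53 (SE 0.07, limma adjusted p = 9.3e-05). Rpl8 was 1.20 ± 0.0766 times the median member in cKO and 1.46 ± 0.0934 times in controls (log2 difference -0.28, limma adjusted p = 0.0058, no overlap). Rps27l was 0.622 ± 0.0241 times the median member in cKO and 0.495 ± 0.0366 times in controls (0.33, limma adjusted p = 0.0015, no overlap). Rps19 was 0.579 ± 0.0304 and 0.507 ± 0.0218 times the median member (0.19, limma adjusted p = 0.0248), with cKO 1 at 0.541 just above control 6 at 0.539. Rpl39, which stood high relative to the median gene, was 0.403 ± 0.0540 and 0.316 ± 0.100 times the median member and was not called (limma adjusted p = 0.1097).

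**Figure D2:**
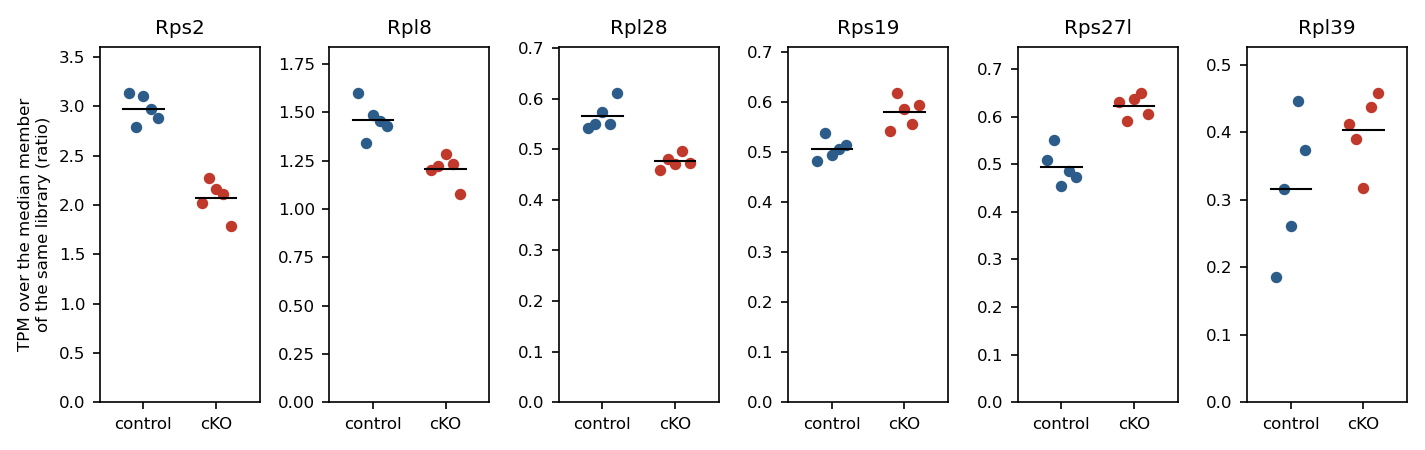
TPM of 6 members divided by the median member of the same library (a ratio, axis from 0), for 5 control and 5 cKO libraries; lines are means. Rps2, Rpl8 and Rpl28 lie lower in cKO and Rps19 and Rps27l higher without overlap, and the groups of Rpl39 overlap.

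Ribosomal protein genes have many processed copies in the genome, and reads of a gene and of a near-identical copy cannot be assigned with certainty. By sequence, 67 members had 479 rows in the table whose transcript matched at least 90% of the member's coding sequence at 95% identity or more, and 50 of those rows, for 36 members, reached a mean of 1 TPM. Copies held at least 10% of the summed level for 16 members and over 50% for 10, among them Rps27 (97.5%), Rpl12 (96.8%), Rpl5 (93.2%), Rpl27a (89.6%), Rps23 (86.4%), Rpl27 (67.4%), Rpl10 (56.9%), Rps16 (56.4%) and Rpl10a (55.7%). These members and copies are named for that share, after it was seen. The rows of these members are therefore uncertain taken alone.

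Rps27 showed this most clearly. Its own row was at 88.2, 9.54, 4.79, 71.1 and 35.98 TPM in cKO and 3.95, 4.21, 2.18, 4.04 and 3.73 TPM in controls as deposited. The cKO libraries were spread over a wide range, with cKO 3 and cKO 5 near the controls. The row's difference relative to the median gene, 1.93 (SE 0.66, limma adjusted p = 0.0357), was the highest of all members. Its copy Rps27rt, identical over the whole coding sequence, was at 1064, 1185, 1013, 1221 and 1588 TPM in cKO and 323, 822, 508, 722 and 594 TPM in controls, without overlap. Summed with its copies, Rps27 differed by 0.38 and was not called (SE 0.22, limma adjusted p = 0.1820).

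The rows of Rpl10 and its identical copy Rpl10-ps3 were closer to each other in level. How reads were assigned between these rows was not tested. Rpl10 was at 636, 500.2, 482, 415 and 425 TPM in cKO as deposited, and Rpl10-ps3 at 513, 587, 613, 572 and 810 TPM. Rpl10 was highest and Rpl10-ps3 lowest in cKO 1. In controls Rpl10 was at 201, 152, 222, 216 and 142 TPM and Rpl10-ps3 at 247, 394, 277, 227 and 237 TPM, and there control 6 had the highest copy. Summed, Rpl10 differed by 0.53 with a smaller error (SE 0.08, limma adjusted p = 0.0002).

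**Figure D3:**
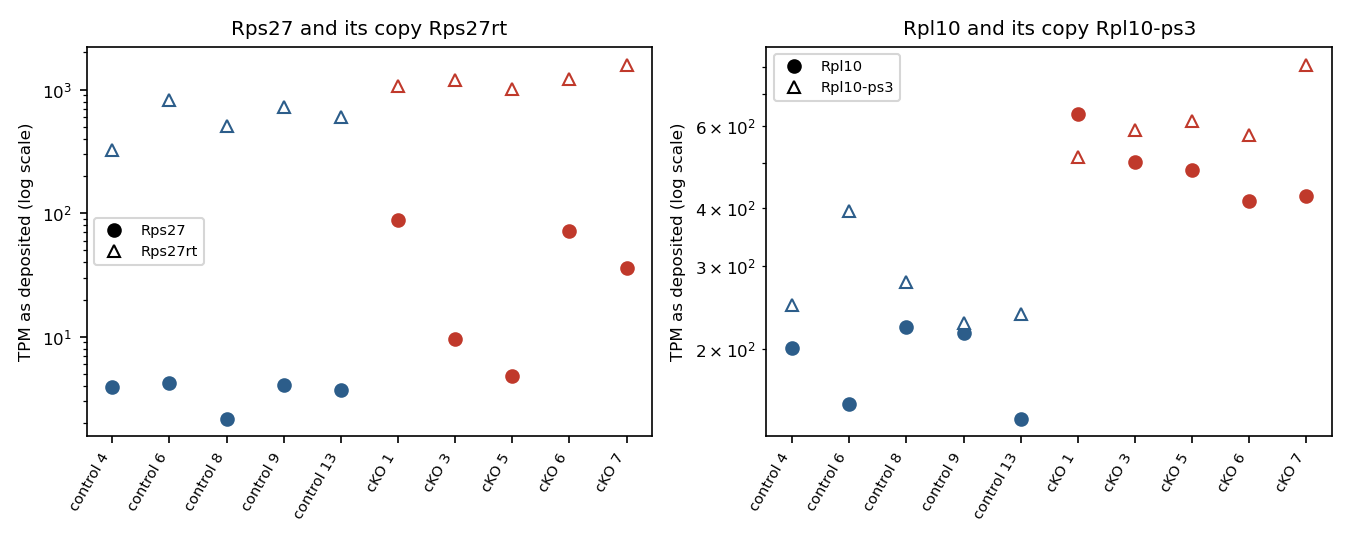
TPM as deposited (log axis) of Rps27 and its copy Rps27rt (left) and of Rpl10 and its copy Rpl10-ps3 (right) in each library, controls in blue and cKO in red. Rps27rt exceeds Rps27 in every library while Rps27 varies from 4.79 to 88.2 TPM among cKO libraries, and Rpl10 exceeds its copy in cKO 1 alone.

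Summing brought the 16 members closer together. Their log2 differences relative to the median gene ran from 0.06 to 1.93 on their own rows (SD 0.44 over members) and from 0.16 to 0.53 when summed (SD 0.11), with medians of 0.39 and 0.38. The SD of the own rows rests in large part on Rps27 at 1.93, with Rpl10 next at 0.66. The low values of Rpl5, Rps7 and Rpl28 moved up to 0.39 (limma adjusted p = 0.0010), 0.31 (0.0034) and 0.30 (0.1367), so the place of these members, and of Rpl27a, below the median member also rests on the row chosen. Rpl27a at 0.26 (limma adjusted p = 0.0259) and Rps16 at 0.38 (0.0344) were called as well. Rps27, Rps20 at 0.41 (limma adjusted p = 0.1260) and Rpl36a at 0.48 (0.1211) were no longer called. The difference of Rpl36a did not fall on summing (0.44 on its own row), but its SE rose from 0.12 to 0.23. The most abundant copy of Rpl36a was listed at 0 TPM in cKO 5 and control 4, and between 104 and 534 TPM elsewhere. With copies the counts were 26 large and 17 small subunit members higher and 1 lower, where 2757 of 13241 tested genes were higher and 2765 lower. Rps2, with 0.535% of its summed level in copies, stayed at -0.21, and no copy was found in the table for Rps27l, Rps19 or Rpl8. The share of TPM without mitochondrial transcripts was 9.51 ± 0.472% in cKO and 6.36 ± 0.344% in controls (SD, n = 5) when copies were counted.

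**Figure D4:**
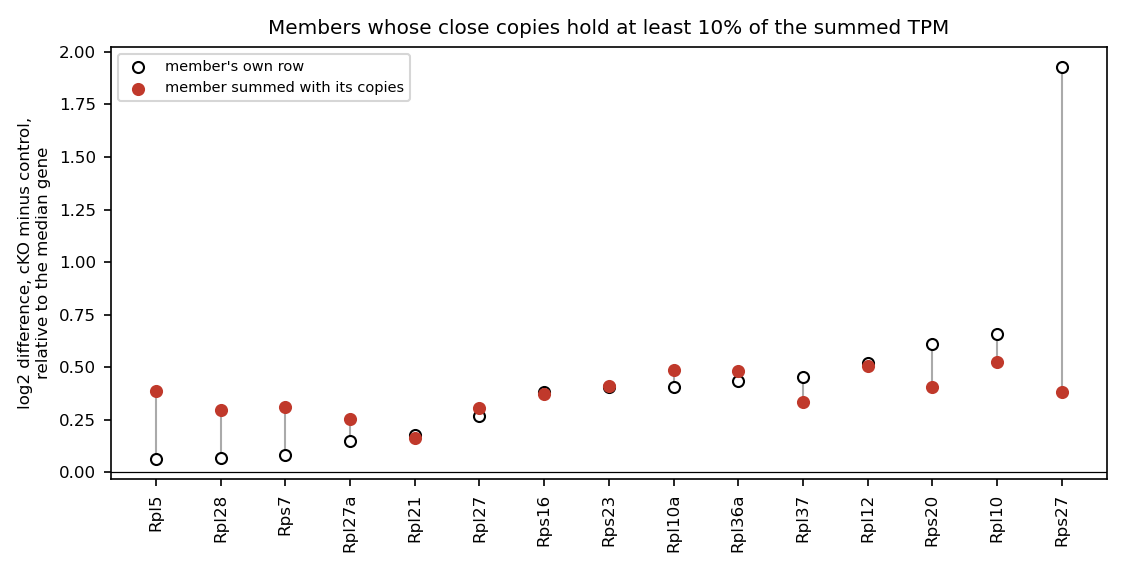
Log2 difference between cKO and control hearts relative to the median gene for 15 of the 16 members whose close copies hold at least 10% of the summed TPM, from the member's own row (open) and after summing with the copies (filled). The open points run from 0.06 (Rpl5) to 1.93 (Rps27) and the filled ones from 0.16 (Rpl21) to 0.53 (Rpl10).

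Ribosomal proteins that the name rule misses were read on the same scale, where 20.8% of tested genes were called higher and 20.8% lower. Rack1, a signalling scaffold on the small subunit, differed by 0.39 (limma adjusted p = 0.0013), Rps3a1 by 0.30 (0.0148) and Fau, made as a fusion of a ubiquitin-like protein with a small subunit protein, by 0.44 (0.0226), and all 3 were called higher. Rpl22l1 at 0.21 and Rpl7l1 at 0.04 were not called.

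Other genes of ribosome production and use were read from lists on the same scale. The counts stand beside 20.8% of all tested genes called higher and 20.8% called lower. Of 20 other TOP mRNAs, 10 were higher and 0 lower (median 0.22), among them Eef1a1, the elongation factor that brings aminoacyl-tRNA, at 0.52 (2873 ± 261 TPM in cKO and 1204 ± 191 TPM in controls as deposited), and Npm1, a nucleolar chaperone, at 0.41. Small subunit assembly factors counted 15 higher and 0 lower of 44 (median 0.14), with Heatr1 at 0.47, a part of the early nucleolar processome. Large subunit assembly factors counted 13 higher and 3 lower of 35 (median 0.24), with Rpf2 at 0.46 and Eif6, which keeps free large subunits from joining, at 0.64. Of 11 chaperones and importins of ribosomal proteins 5 were higher and 0 lower (median 0.07), with Tsr2, the escort of Rps26, at 0.55. RNA polymerase I genes, which make the ribosomal RNA, counted 5 higher and 2 lower of 13 (median 0.19), with the polymerase subunit Polr1e at -0.94 and the core factor Taf1b at 0.57. All of these medians were below the 0.29 and 0.31 of the members, a difference that was not tested.

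Counts for users and regulators of ribosomes likewise stand beside 20.8% of all tested genes higher and 20.8% lower. Initiation factors counted 12 higher and 3 lower of 36 (median 0.13), with Eif1a at 0.81 and the helicase Eif4a2 at -0.53. Elongation and termination factors counted 5 higher and 1 lower of 11 (median 0.16), the lower being Eef1a2, the elongation factor form of adult muscle, at -0.27. Genes of mTORC1 and TOP mRNA control counted 5 higher and 1 lower of 18 (median 0.02); Eif4ebp1, a translation repressor that mTORC1 switches off, was at 0.57 and Ddit4, an mTORC1 inhibitor, at -0.64. Stalled ribosome rescue counted 5 higher and 1 lower of 12 (median 0.12), with Pelo, which splits stalled ribosomes, at 0.59. Small nucleolar RNA host genes counted 3 higher and 1 lower of 9, with Gas5, itself a TOP RNA, at 0.50. Their median of 0.38 was above the 0.29 and 0.31 of the members, a difference that was not tested.

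Of 7 transcription factors tied to ribosomal protein genes 1 was higher and 2 lower (median 0.07), beside 20.8% and 20.8% of all tested genes. Myc, a driver of ribosome production, was at 15.5 ± 2.98 TPM in cKO and 2.15 ± 0.309 TPM in control hearts (SD, n = 5) as deposited. Its difference relative to the median gene was 1.76 (SE 0.10, limma adjusted p = 2.9e-07). Mycn, its relative of the developing heart, was lower at -0.89 (limma adjusted p = 0.0001), and Gabpa, which binds ETS sites, at -0.26 (limma adjusted p = 0.0207).

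The markers of cell types moved alongside on this scale, where 20.8% of all tested genes were called higher and 20.8% lower. Fibroblast markers counted 7 higher and 1 lower of 8 (median 0.62), endothelial markers 0 higher and 8 lower of 8 (median -0.59), and smooth muscle and pericyte markers 1 higher and 3 lower of 8. As deposited the same lists counted 8 higher and 0 lower, 0 higher and 0 lower (endothelial, median 0.12), and 5 higher and 0 lower. Of all tested genes 76.5% were then higher and 3.46% lower. Of 5 erythroid, 1 lymphocyte and 2 neutrophil markers that could be tested 0 were called relative to the median gene, and Elane was at 0 in every library. Their part in the levels of the ribosomal protein genes was not tested.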

How the data were processed

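Hearts of 10 mice were profiled, 5 per group; replicates are separate animals, per the labels. The authors deposited a table of TPM per gene. The submitters' processing notes name mm10, STAR 2.7.1, HTSeq 0.11.2, DESeq2 1.22.2, Trimmomatic 0.32, Picard 1.96, FastQC 0.11.7 and bcl2fastq, in no stated role. Not given in the sources used here were the annotation release, gene lengths and strandedness, and overlapping and antisense genes cannot be told apart; exons of 24 members overlap other genes, 6 of them over more than 25% of exonic bases. TPM keeps no depth, so read numbers are unknown and counting intervals cannot be given.

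Groups were compared on log2(TPM + 1) with limma 3.58.1 in R 4.3.3 (variance trend, two-sided, Benjamini-Hochberg adjustment over 13282 genes with TPM of at least 1 in at least 5 libraries, threshold 0.05), which understates changes of low genes. Values were used as deposited, scaled by median-of-ratios size factors (16393 genes), or divided by the median member of each library. The fit was tested on simulated data. Copies were found with BLAST 2.17.0 in GENCODE M21 transcripts. Results of some genes are not reported here, though counts over the set include them. Members and lists were chosen with earlier results of these data known. Named members are the 5 highest and 5 lowest differences and 3 highest levels of each subunit, the stalk genes, Rpsa and paralogues ending in l with their source gene; for each list, up to 3 genes of smallest adjusted p. Alternatives varied pseudocount, filter, variance model, library weights, scaling, a Ddx3y covariate and the libraries; leaving out the cKO libraries with Xist and summing with copies were added after seeing the data. Other steps used pandas 2.3.3 and numpy 2.4.6 in Python 3.11.15.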

Additional observations from a re-analysis of the deposited data

Results flagged for a closer look

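Library cKO 7 stood apart from the other cKO libraries, by a gap to the next value above 0.71 of the whole range of the 5, in Rplp1 at a scaled TPM of 1174, Rps20 at 171, Rps26 at 713 and Rps4x at 682. It did so too in the share of TPM without mitochondrial transcripts held by the members, 8.76%, and in the scaled level of the median member, 503. It was the highest cKO library for 72 of the 78 members.

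Library control 6 stood apart in the same way from the other controls in Rps27l at a scaled TPM of 205, the members' share at 5.93% and the median member at 373, and it was the highest control for 62 of the 78 members. Control 8 was apart and low for Rps27, at 2.57. In all, 10 of 66 groups of values stood out this way, and chance flags about 1 in 20; the members share their library, so these are not separate events.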

How the results depend on the processing

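Every member tested in a setting was called higher as deposited, 78 in each setting but the filter of 5 TPM in 5 libraries, which left 77 (Rps27 was not tested there). Over these settings the share of tested genes called higher ran from 10914 of 28821 (no filter on low values) to 7448 of 8954 (the filter of 5 TPM). It was 9405 of 13282 with a Ddx3y covariate and 8354 of 12172 without the cKO libraries with Xist. Relative to the median gene, 74 members were above 0 in each of the 24 settings in which they were tested (23 for Rps27). The exceptions were Rps2, Rps4l, Rps7 and Rpl36, and all tested genes were not counted this way. Depth is unknown, the sexes are uneven between groups, and the counts relative to the median gene depend on the scaling and on which libraries enter. The causes were not tested, beyond the fewer libraries or more genes tested that some settings have by construction. No paired analysis was possible because the groups share fewer than 2 replicate numbers.

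Relative to the median gene (25 large and 16 small subunit members higher, 1 small lower), the counts were 19 large and 8 small higher and 0 small lower with no filter on low values. There 28821 genes were tested, of which 2721 were higher and 2692 lower. With a Ddx3y covariate the member counts were 13 large and 7 small higher and 0 lower. Of 13282 tested genes 1986 were then higher and 2080 lower. Without the cKO libraries with Xist, a setting chosen after seeing the data, the member counts were 12 large and 6 small higher and 0 lower. Rps4l was there at 0.0091 and Rps7 at -0.013, and 1392 of 12172 tested genes were higher and 1803 lower. Closed again without mitochondrial transcripts the member counts were 46 large and 30 small higher and 0 lower, with medians of 0.58 and 0.61. Rps2 was there at 0.087 and Rps4l at 0.23, and 6066 of 13282 tested genes were higher and 1388 lower. With the 100 most abundant genes left out of the sum used for scaling, but still tested, the member counts were 40 and 28. Of 13282 tested genes 3278 were then higher and 2347 lower. Leaving out each library gave 19 to 28 large and 8 to 21 small higher, 0 to 1 small lower, and medians of 0.24 to 0.33 and 0.25 to 0.36. Over these settings 2256 of 12778 (without cKO 5) to 2696 of 13149 (without control 6) tested genes were higher. Rps4l ranged from -0.12 to 0.0085 (without cKO 1) and Rpl36 from -0.012 (without control 4) to 0.15.

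Relative to the median member, a centre from the members of highest level gave 8 members higher and 5 lower. The higher ones were 3 large and 5 small, and the lower ones were of both subunits, 3 of them large. Of 13282 tested genes 1248 were then higher and 4773 lower. Leaving out each library gave 0 to 2 large higher, 3 to 8 large lower, 1 to 3 small higher and 2 to 3 small lower. There 716 of 12778 (without cKO 5) to 1040 of 12811 (without cKO 7) tested genes were higher. From 4582 of 13161 (without control 8) to 5815 of 13149 (without control 6) were lower. With each library left out, the ratio of shares without mitochondrial transcripts was 1.45 to 1.51, and as deposited the medians were 0.98 to 1.10 and 0.99 to 1.13.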
